A study of Mus musculus with 24 samples.

Results

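Gene expression was compared between leukemic and preleukemic bone marrow B cells of irradiated mice that carry 1 functional allele of Pax5 (Pax5+/-). The comparison used the 17 Pax5+/- arrays among the 24 arrays of the series, with 1 array for each sample. Arrays were assigned to a group by their titles. The leukemic group held 10 arrays of B cells from tumor-bearing marrow. The preleukemic group held 7 arrays of pro-B and pre-B cells from marrow without that label. All 17 samples shared the Pax5+/- genotype and a radiation dose of 2 Gy, and the labels give 3 weeks after irradiation for leukemic samples as well. Leukemic (4 arrays) and preleukemic (3 arrays) samples of irradiated wild-type mice served to ask whether the difference depended on genotype. They also entered the model's shared estimate of spread, the choice of probe sets and the gene filter. No source used here gives strain, age, sex or the purity of the leukemic cells. The labels name biological replicates, and p-values measure the spread between these samples. A total of 15647 named genes were tested, and the question was which transcripts differ between the leukemic and preleukemic arrays of the Pax5+/- genotype. The titles name B cells for the leukemic group and pro-B and pre-B cells for the preleukemic group. Stage and the cell fraction collected therefore cannot be told apart, and differences described as in leukemia are differences between these groups.

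Pro-B and pre-B cells are the marrow stages at which immunoglobulin genes are assembled, under transcription factors that include EBF1, E2A (encoded by Tcf3), PAX5, FOXO1 and the Ikaros family. PAX5 holds cells to the B lineage, and loss of 1 of its alleles is a recurrent lesion of B-cell acute lymphoblastic leukemia. MYC, which pairs with MAX on E-box DNA, drives cell growth by raising the machinery of ribosome, protein and nucleotide synthesis.

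Promoter windows are shown for 4 genes of the groups described below. They were picked among genes that rose or fell because their windows hold a motif match, so they do not represent such genes in general. Each window holds the 250 bases upstream of a RefSeq gene start in build GRCm38.p6, on the strand of the gene. Capitals mark the MYC-MAX E-box CACGTG in the first 3 sequences and the EBF motif (TCCC, any pair of bases, then GGGA) in the fourth. Xpot encodes the exportin of transfer RNA (chr10:121626333-121626582, minus strand), Hspd1 a mitochondrial chaperonin (chr1:55088244-55088493, minus strand), and Timm8a1 a chaperone of mitochondrial import (chrX:134541671-134541920, minus strand). Foxo1 encodes a transcription factor of early B cells (chr3:52268087-52268336, plus strand).
Xpot: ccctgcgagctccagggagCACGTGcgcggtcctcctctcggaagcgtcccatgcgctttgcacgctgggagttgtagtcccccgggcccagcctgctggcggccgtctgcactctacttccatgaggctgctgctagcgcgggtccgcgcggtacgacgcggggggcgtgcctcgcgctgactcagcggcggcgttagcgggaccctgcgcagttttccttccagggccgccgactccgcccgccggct
Hspd1: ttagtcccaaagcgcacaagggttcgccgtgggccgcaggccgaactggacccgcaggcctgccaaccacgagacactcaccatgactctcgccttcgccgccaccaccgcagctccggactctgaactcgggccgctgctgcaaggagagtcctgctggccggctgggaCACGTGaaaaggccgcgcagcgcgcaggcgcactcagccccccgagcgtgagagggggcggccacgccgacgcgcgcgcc
Timm8a1: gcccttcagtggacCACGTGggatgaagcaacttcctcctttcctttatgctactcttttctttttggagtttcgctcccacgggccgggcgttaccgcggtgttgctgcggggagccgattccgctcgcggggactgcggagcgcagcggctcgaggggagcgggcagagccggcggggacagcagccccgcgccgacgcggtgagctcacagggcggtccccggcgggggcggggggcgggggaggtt
Foxo1: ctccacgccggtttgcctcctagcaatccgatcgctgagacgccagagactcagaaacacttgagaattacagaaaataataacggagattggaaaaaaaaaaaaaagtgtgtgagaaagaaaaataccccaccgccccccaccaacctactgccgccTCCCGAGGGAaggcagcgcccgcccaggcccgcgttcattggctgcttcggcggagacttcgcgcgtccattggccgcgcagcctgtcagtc
The E-box lay 231 bases before the start of Xpot, 80 before that of Hspd1 and 236 before that of Timm8a1, and the EBF motif 92 before that of Foxo1. Both motifs read the same on either strand, so 1 search covers both. Among 12315 tested genes with a window, 9.11% held CACGTG and 1.14% held the EBF motif. CACGTG stood in 20.6% (13 of 63) of the windows of genes that rose in the lists of nuclear transport, mitochondria, translation and RNA polymerases I and III. The share among members of these lists that did not rise was not computed, so list membership and direction are not separated. Over all lists and other genes, CACGTG stood in 9.54% of windows of genes at least 2-fold higher in leukemia. Among genes at least 2-fold lower it stood in 11.5%. The EBF motif stood in 2.46% (9 of 366) of windows of genes at least 2-fold lower and in 1.07% of those at least 2-fold higher. These matches describe the sequence only.

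The array signals were log2 values, and their medians ran from 6.23 to 6.27 in preleukemic and from 6.10 to 6.22 in leukemic arrays, without overlap. No pair of the 17 arrays was a duplicate (highest correlation 0.995). The number of arrays limits the precision, and the SD of a gene over arrays had a median of 0.123 in the preleukemic and 0.17 in the leukemic group. A dim level was set at the 30th percentile of each array (5.18 to 5.35), since detection calls were not used here. Where arrays of the lower group lay at or below it, the fold is given as a lower bound. Each array of that group was then set to no less than its dim level.

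Surface genes expressed by B-lineage cells, not all of them specific to that lineage, differed in how bright they were in leukemia. Cd79a, a signalling subunit of the B-cell receptor, ran from 12.88 to 13.22 (median 13.03) before leukemia and from 10.99 to 12.28 (median 11.47) in leukemia. It fell by 1.50 ± 0.18 (SE) in leukemia (limma adjusted p = 4.49e-07). Ptprc, the pan-leukocyte phosphatase CD45, had medians of 10.96 and 10.81 and did not pass the test (-0.06 ± 0.08, adjusted p = 0.51). Il7r, the receptor for the growth factor of early B cells, had medians of 12.61 and 12.34 (-0.32 ± 0.15, adjusted p = 0.0774). By contrast, Ms4a1 (CD20) was 5.17 to 6.63 in leukemia, near or at the dim level in the lowest arrays, and is described below.

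Markers of several other marrow cells were also higher in the leukemic arrays, and their part in the results below was not tested. Their counts are read against all genes tested, of which 27.8% rose and 35.1% fell. In a bulk sample, more cells of a type and more RNA per cell cannot be told apart. All 11 platelet and megakaryocyte genes tested rose. Their mean signal ran from 6.68 to 6.85 before leukemia and from 7.85 to 10.34 in leukemia. Of 18 stromal and endothelial genes 17 rose, with means of 6.43 to 6.57 and 7.30 to 8.50. Of 18 monocyte and macrophage genes 13 rose, with means of 6.02 to 6.27 and 6.88 to 9.20. The granulocyte list was less uniform. It had 11 of 18 genes higher, means of 6.10 to 6.74 before leukemia, and 10.13 and 10.51 in leukemic arrays 1 and 6 against 6.10 to 8.55 in the other leukemic arrays. Without arrays 1 and 6 only 4 of these 18 genes were called, and 6 or 7 were without any 1 of leukemic arrays 1, 5 and 6 or preleukemic arrays 1, 4, 6 and 7. T-cell and NK-cell markers rose in 4 of 19 cases, a share below that of all genes, and 2 of the defining T-cell genes, Cd3d (median 5.08 in leukemia, near the dim level) and Cd3e (median 6.54), did not pass. Among 9 erythroid markers 1 was called, Alas2, which fell by 1.98 ± 0.57, while a fit of only the 17 Pax5+/- arrays called 5 falls and 1 rise.

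**Figure D1:**
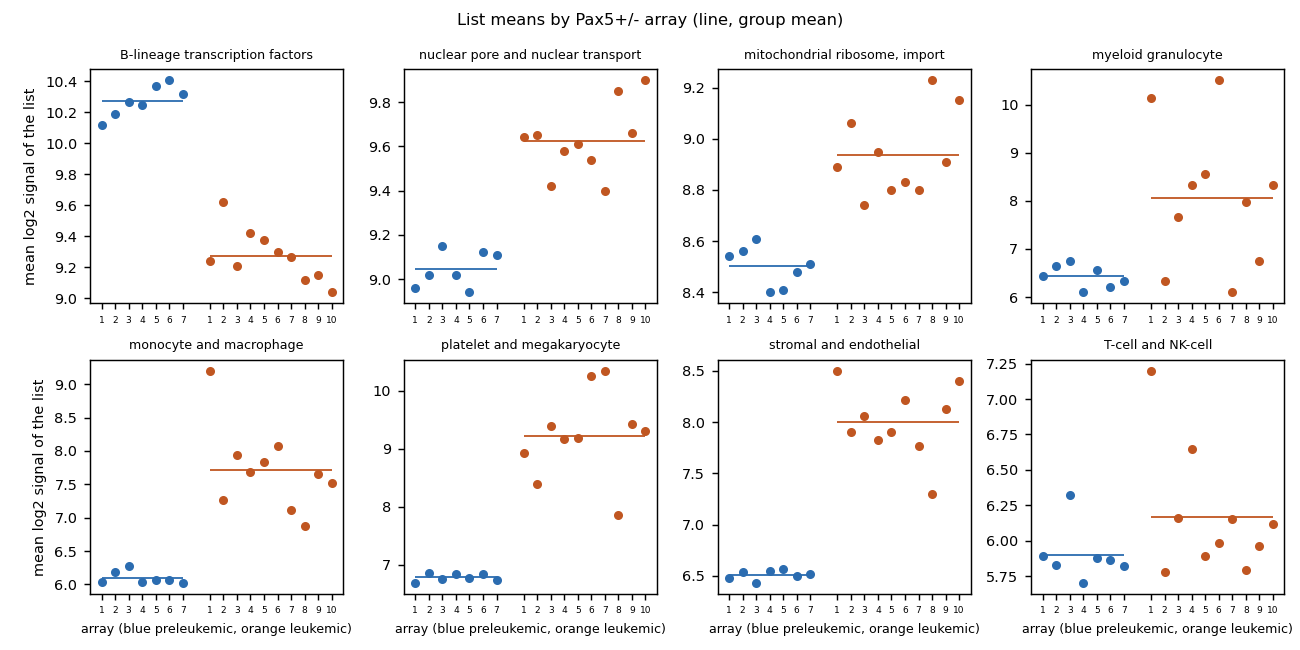
The mean log2 signal of 8 gene lists is plotted for each preleukemic (blue) and leukemic (orange) Pax5+/- array, with a line at each group mean. Groups lie apart for the B-lineage factor, nuclear transport, mitochondrial, monocyte, platelet and stromal lists, whereas granulocyte means spread from 6.10 to 10.51 over the leukemic arrays.

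Most genes differed between the stages, although usually by a small amount. Of 15647 genes, 9839 (62.9%) passed limma at an adjusted p under 0.05 (Benjamini-Hochberg), which is meant by called. Of all genes tested 27.8% rose and 35.1% fell, and the median difference over all genes was -0.05. Among called genes 44.3% were higher, a share that was 33.5% with each array centred on its median over named genes and 59.1% with centring on all probe sets. Among the called genes 6549 (66.6%) differed by less than 1.5-fold. At least 2-fold differences were found for 1053 genes that rose (6.73% of those tested) and 468 that fell (2.99%). Beyond 16-fold there were 11 rises and 7 falls. The leukemic and preleukemic arrays did not overlap in 1832 genes higher in leukemia (11.7%) and 1642 lower (10.5%). For 4270 genes (27.3%), the 95% confidence interval of the difference lay within 1.2-fold in either direction.

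**Figure D2:**
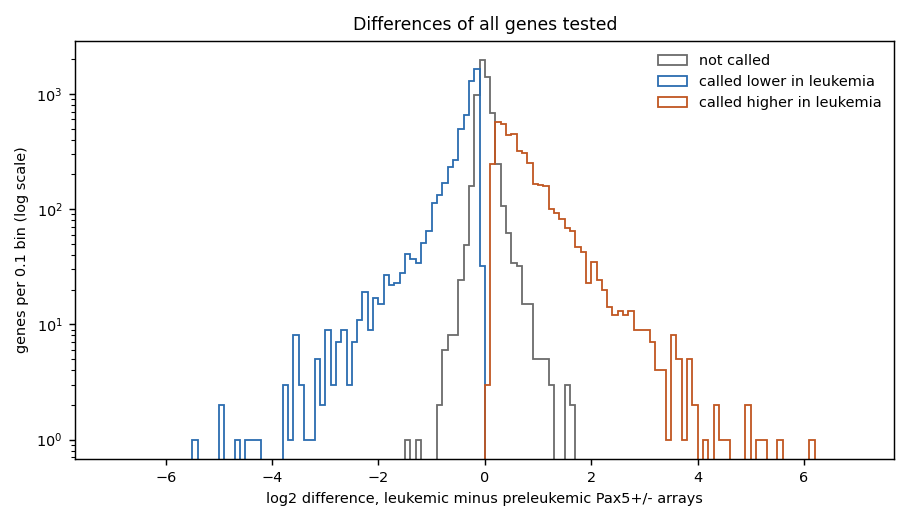
Numbers of genes are plotted on a log scale against the log2 difference between leukemic and preleukemic Pax5+/- arrays, in bins of 0.1, with 1 outline each for genes called lower, called higher and not called. The tail of large differences holds 1053 genes at least 2-fold higher and 468 at least 2-fold lower.

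The 20 largest falls held genes of several functions. Fcrla, a B-cell protein related to Fc receptors, ran from 11.75 to 12.32 (median 12.04) before leukemia and from 6.01 to 7.34 (median 6.47) in leukemia. It fell by 5.50 ± 0.15 (adjusted p = 1.7e-17), or 45.2-fold, and every leukemic array lay far below every preleukemic one. Ikzf3, which encodes the Ikaros-family factor Aiolos, ran from 11.03 to 11.39 (median 11.31) and from 5.70 to 7.65 (median 5.94). The 31.5-fold fall of Ikzf3 (-4.98 ± 0.29, adjusted p = 4.71e-12) was shared by all 10 leukemias, and array 1 kept the most signal. Atp1b1, a sodium pump subunit, ran from 12.40 to 12.67 (median 12.56) and from 6.75 to 9.48 (median 8.12). It fell 21.2-fold (-4.41 ± 0.29, adjusted p = 5.13e-11). Reln, the secreted glycoprotein reelin, ran from 8.96 to 10.56 (median 10.10) and from 5.48 to 5.75 (median 5.65). Its fall was 20.9-fold (-4.38 ± 0.18, adjusted p = 2.01e-14), and the leukemic values lay within a narrow band close to the dim level.

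Polm, a DNA polymerase of end joining that acts during immunoglobulin gene assembly, ran from 9.63 to 10.25 (median 9.91) before and from 5.43 to 6.23 (median 5.74) in leukemia. It fell 18.5-fold (-4.21 ± 0.15, adjusted p = 1.66e-15). Several receptors followed. The adhesion receptor gene Cd2 fell by 3.80 ± 0.39, the inhibitory lectin gene Siglecg by 3.57 ± 0.18 and the B-cell coreceptor gene Cd72 by 3.77 ± 0.61. Cd72 was among the more variable of them, at 5.96 to 10.74 (median 8.74) in leukemia against 11.78 to 12.39 before. The kinase gene Nuak1 fell by 3.69 ± 0.20, the glycerolipid enzyme gene Gpam by 3.53 ± 0.10, the repair glycosylase gene Neil1 by 3.55 ± 0.16 and the RAS activator gene Rasgrp1 by 3.48 ± 0.37. The remaining falls among the 20 largest, in Serinc5, Ifi209, Steap4 and Adam19, lay between 10.8-fold and 12.0-fold. None of the 20 genes had overlapping groups, as the rule that named them required.

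Leukemic array 2 kept higher signals of some of these genes than the other leukemias. Cpm, a membrane carboxypeptidase, was 9.15 in array 2 and 5.50 to 7.18 in the other 9 leukemic arrays, against 11.39 to 11.75 before leukemia. Otub2, a deubiquitinase, was 8.43 in array 2 and 5.58 to 5.86 in the others, against 10.35 to 10.85. Fcmr, the receptor for IgM, was 9.62 in array 2 and 6.11 to 6.74 in the others, against 9.75 to 10.61. Array 2 lay below every preleukemic array in these 3 genes, narrowly so in Fcmr. The falls over all 10 arrays were 31.8-fold for Cpm (-4.99 ± 0.36, adjusted p = 1.5e-10), 25.8-fold for Otub2 (-4.69 ± 0.31, adjusted p = 3.78e-11) and 12.0-fold for Fcmr (-3.59 ± 0.36, adjusted p = 2.18e-08). Trib2, a pseudokinase of the Tribbles family, was also highest in array 2 (9.82, median 7.95) and fell 13.6-fold (-3.76 ± 0.34). Pax5 itself was 11.37 in array 2, inside the preleukemic range of 11.34 to 11.59, and 6.87 to 9.38 in the other leukemias. Its mean difference was -2.90 ± 0.54 (limma adjusted p = 9.4e-05, two-sided exact permutation p = 0.000206 over 19448 splits).

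Over the 468 genes that fell at least 2-fold, array 2 was the leukemic array nearest to the preleukemic mean in 160 (34.2%). Array 2 was nearest in 275 (26.1%) of the 1053 genes that rose at least 2-fold. Its median difference from the preleukemic mean was -1.28 over the falls and 1.19 over the rises. In the other leukemic arrays these medians were -1.43 to -1.75 and 1.41 to 1.54. Array 2 was thus the least different leukemia on both sides by this measure, while 25 of 468 falls (5.34%) and 93 of 1053 rises (8.83%) lay inside the preleukemic range. Its mean over the granulocyte markers was 6.33, which is inside the preleukemic range of 6.10 to 6.74. Its mean over the B-lineage transcription factors was 9.62, the highest of the leukemias. Because the leukemic arrays helped to choose these genes, these shares are a description.

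**Figure D3:**
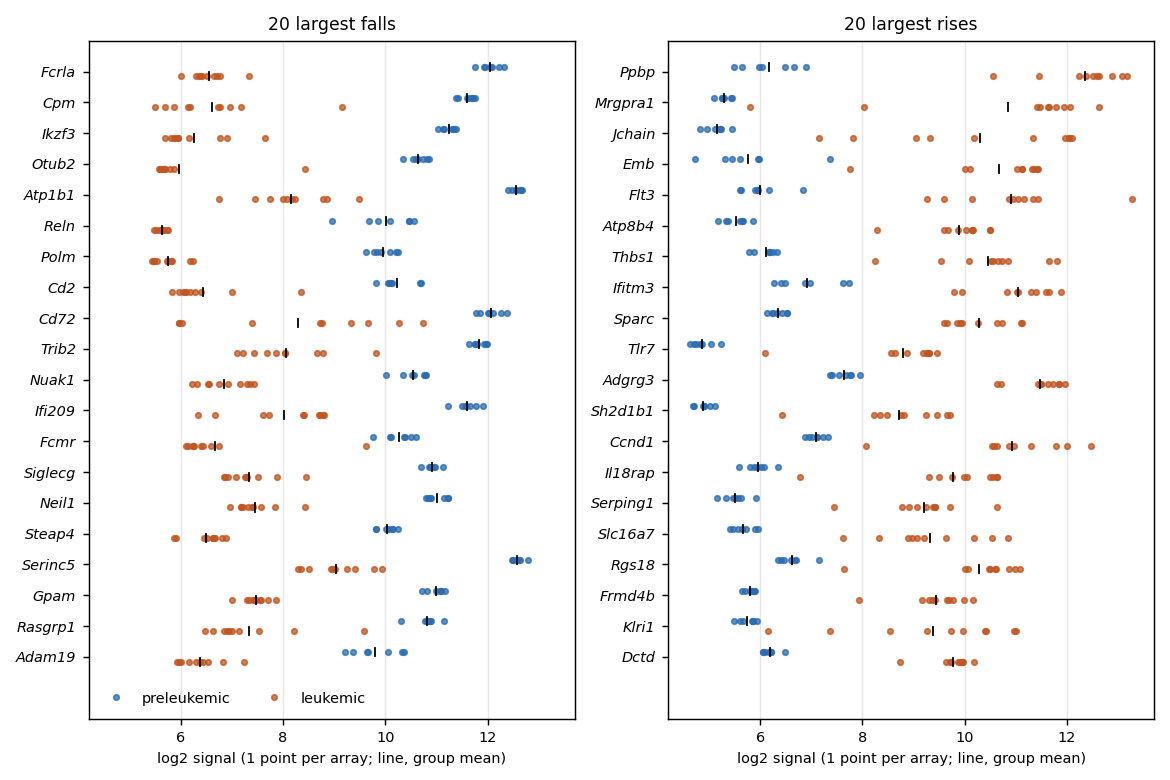
The log2 signal of each array is plotted for the 20 largest falls and the 20 largest rises, with preleukemic arrays in blue, leukemic arrays in orange and a line at each group mean. The groups do not overlap in any of the 40 genes. A single leukemic array stands apart in, for example, Cpm, Otub2 and Fcmr among the falls and Emb and Tlr7 among the rises. In Mrgpra1 leukemic arrays 2 and 7 both lie low.

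The 20 largest rises included marker genes of other marrow cells as well as receptor genes. Ppbp, a platelet chemokine, ran from 5.48 to 6.90 (median 6.03) before leukemia and from 10.56 to 13.17 (median 12.55) in leukemia. It rose 72.3-fold (6.18 ± 0.29, adjusted p = 1.64e-13), in every leukemic array, next to the platelet list described above. Thbs1, a matrix protein that platelets store, ran from 5.78 to 6.33 (median 6.18) and from 8.24 to 11.80 (median 10.60). It rose 20.4-fold (4.35 ± 0.37, adjusted p = 1.84e-09). Sparc, a matrix protein of stromal and endothelial cells, ran from 6.14 to 6.53 (median 6.32) and from 9.60 to 11.13 (median 10.10) and rose 15.3-fold (3.94 ± 0.20, adjusted p = 7.56e-13). Array 8 was lowest of the leukemias for Ppbp, Thbs1 and Sparc alike, and it was also lowest for the platelet, stromal and monocyte list means.

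Flt3, a receptor tyrosine kinase of early progenitors, ran from 5.61 to 6.83 (median 5.94) before leukemia and from 9.27 to 13.28 (median 10.99) in leukemia. It rose 29.8-fold (4.90 ± 0.43, adjusted p = 3.07e-09), and array 4 was the highest. Emb, the adhesion glycoprotein embigin, ran from 4.72 to 7.36 (median 5.60) and from 7.75 to 11.44 (median 11.12), with array 2 the lowest of the leukemias. It rose at least 28.2-fold (4.90 ± 0.48, adjusted p = 1.98e-08). Jchain, which joins immunoglobulin subunits into polymers, ran from 4.83 to 5.45 (median 5.22) and from 7.16 to 12.11 (median 10.76). It rose at least 31.4-fold (5.16 ± 0.68, adjusted p = 1.29e-06), although other plasma-cell genes divided. Of 12 plasma-cell genes 4 rose and 5 fell, and the regulator gene Prdm1 fell by 0.72 ± 0.13.

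Ccnd1, the G1 cyclin D1, ran from 6.87 to 7.32 (median 7.11) before leukemia and from 8.08 to 12.47 (median 10.91) in leukemia. It rose 14.2-fold (3.83 ± 0.51, adjusted p = 1.31e-06), and array 7 was the single low leukemia. Myc ran from 7.18 to 8.06 (median 7.70) and from 9.09 to 11.93 (median 11.41). Its rise was 11.9-fold (3.58 ± 0.33, adjusted p = 7.23e-09), with array 3 the lowest of the leukemias and still above all preleukemic arrays. Tlr7, a sensor of single-stranded RNA, was 6.09 in array 2 and 8.56 to 9.46 in the other leukemias, against 4.63 to 5.23 before. It rose at least 11.1-fold (3.93 ± 0.41, adjusted p = 4.41e-08). Ifitm3, an antiviral membrane protein, rose by 4.13 ± 0.40, the nucleotide enzyme gene Dctd by 3.58 ± 0.19 and the complement inhibitor gene Serping1 at least 12.7-fold. Preleukemic arrays reached the dim level in 3 more of the 20 largest rises. The receptor gene Mrgpra1 rose at least 45.3-fold, the flippase gene Atp8b4 at least 20.3-fold and the signalling adaptor gene Sh2d1b1 at least 10.6-fold. The last 6 genes gave log2 differences of 3.63 to 3.84. They were the receptor genes Adgrg3, Il18rap and Klri1, the signalling regulator gene Rgs18, the transporter gene Slc16a7 and the scaffold gene Frmd4b. Mrgpra1, Klri1, Ifitm3 and Ifi209 belong to families with closely related copies, whose probes could share signal.

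Gene lists were then compared with the background of 27.8% of all genes rising and 35.1% falling. For counts without overlap of the groups, the shares over all genes were 11.7% higher and 10.5% lower. Transcription factors of the B lineage were mostly lower. Of 31 tested, 22 fell and 6 rose (90.3% called, median difference -0.89), and 16 falls and 3 rises had groups that did not overlap. Bach2, a repressor that keeps B cells immature, ran from 11.47 to 11.87 (median 11.72) before leukemia and from 8.18 to 9.26 (median 8.73) in leukemia. It fell 7.68-fold (-2.94 ± 0.19, adjusted p = 1.98e-11). Irf4, a factor of pre-B and plasma cells, ran from 11.19 to 11.69 (median 11.31) and from 7.49 to 9.47 (median 8.53). It fell 7.56-fold (-2.92 ± 0.25, adjusted p = 2.28e-09), whereas Spib, an ETS factor of B and plasmacytoid cells, fell 5.56-fold (-2.48 ± 0.16). All leukemias lay below all preleukemic arrays in Bach2, Irf4 and Spib.

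Further members of this list also fell. Foxo1, whose promoter is printed above, ran from 10.72 to 11.25 (median 10.99) and from 8.20 to 9.54 (median 8.94) and fell 4.26-fold (-2.09 ± 0.19, adjusted p = 5.84e-09). Tcf3 fell 3.73-fold (-1.90 ± 0.14), the lineage factor gene Ebf1 2.93-fold (-1.55 ± 0.16), the B-cell coactivator gene Pou2af1 2.55-fold (-1.35 ± 0.14) and the progenitor factor gene Myb 1.93-fold (-0.95 ± 0.15). Ikzf1, which encodes Ikaros, fell 1.55-fold (-0.63 ± 0.07), far less than its relative Ikzf3. Lef1, a WNT-pathway factor, ran from 9.77 to 10.39 (median 10.25) before and from 5.79 to 9.81 (median 6.46) in leukemia. It fell 8.68-fold (-3.12 ± 0.48, adjusted p = 9.41e-06), and only array 2 reached the preleukemic range. The 6 rises included the ETS repressor gene Etv6 (1.25 ± 0.10), the fetal globin repressor gene Bcl11a (0.77 ± 0.18) and Id2, an inhibitor of E proteins (1.26 ± 0.44, adjusted p = 0.0173). The call of Id2 ended without preleukemic array 4 (0.96, adjusted p = 0.0555).

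**Figure D4:**
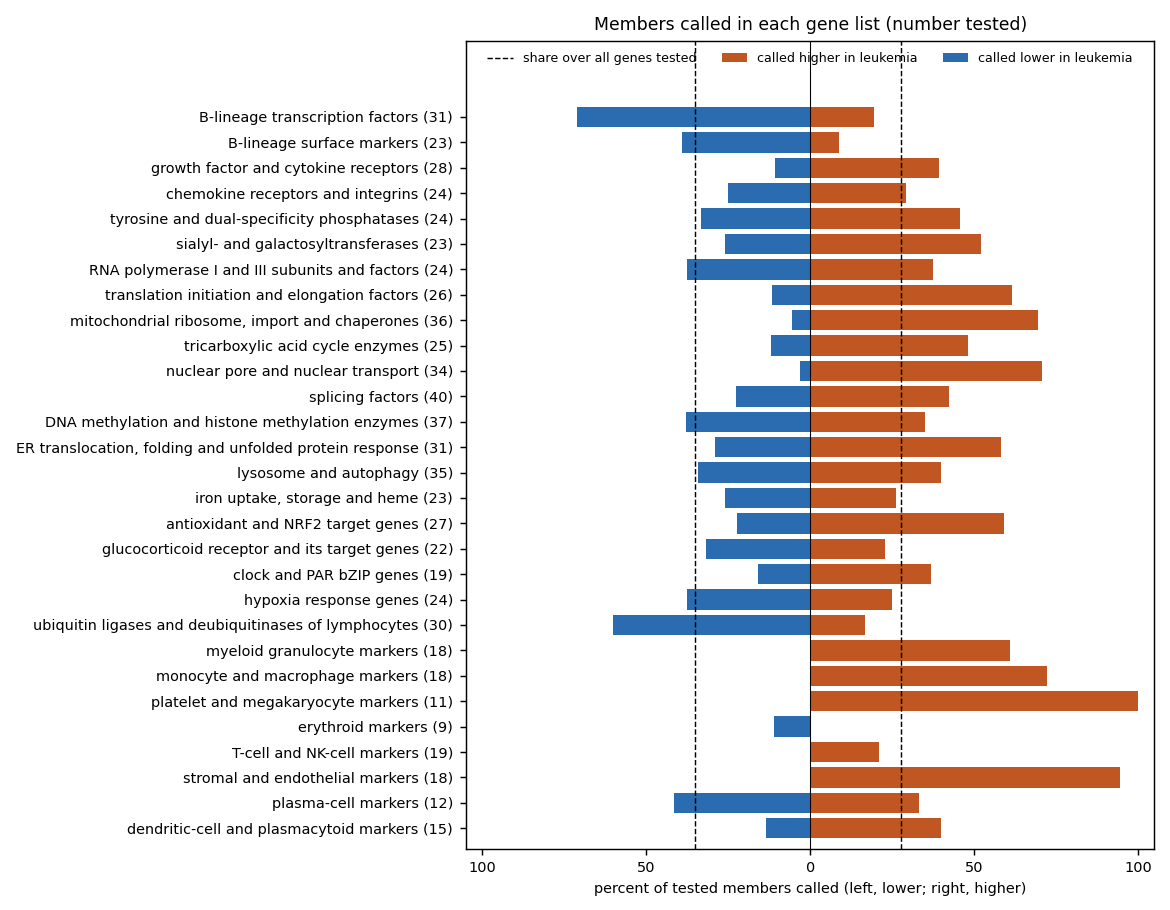
Bars give the percent of tested members of each of 29 lists called lower (left, blue) and higher (right, orange) in leukemic Pax5+/- arrays, and dashed lines mark the shares over all genes tested (35.1% lower and 27.8% higher). B-lineage transcription factors and ubiquitin enzymes extend furthest to the left, and the platelet, stromal, monocyte, nuclear transport and mitochondrial lists furthest to the right.

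Among 23 surface proteins of B-lineage cells tested, 9 fell, 2 rose and 12 did not pass, with a median of -0.35. The share of falls was near the 35.1% of all genes. Ms4a1, which encodes CD20, ran from 8.02 to 9.21 (median 8.74) before leukemia and from 5.17 to 6.63 (median 5.81) in leukemia. It fell at least 6.69-fold (-2.75 ± 0.25, adjusted p = 5.11e-09). The complement regulator gene Cd55 fell at least 5.69-fold (-2.62 ± 0.20), and Vpreb3, a protein of the pre-B cell, 4.73-fold (-2.24 ± 0.45). Vpreb3 varied among the leukemias, from 8.36 in array 10 to 12.12 in array 6. The rises were the tetraspanin gene Cd81 (0.96 ± 0.06), which ran from 10.64 to 10.91 and from 11.50 to 11.97, and the sialomucin gene Spn (0.72 ± 0.08). Surrogate light chain genes did not pass: Igll1 had a difference of -0.87 ± 0.40 (adjusted p = 0.0641) and Vpreb1 of -0.35 ± 0.38 (adjusted p = 0.418).

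Growth factor and cytokine receptors rose more often than they fell, 11 against 3 of 28 tested, with a median of 0.24. The counts were 10 and 6 after repeated quantile normalization. The share of this list that was called, in either direction, lay below the 62.9% of all genes tested. Beside Flt3, described above, the receptor for macrophage colony-stimulating factor and that for stem cell factor rose. Csf1r ran from 6.11 to 6.55 (median 6.50) before leukemia and from 7.74 to 10.96 (median 8.50) in leukemia, a 5.32-fold rise (2.41 ± 0.45, adjusted p = 0.0001). Kit ran from 6.40 to 6.74 (median 6.63) and from 7.26 to 11.62 (median 8.08), a 3.91-fold rise (1.97 ± 0.54, adjusted p = 0.00332). No leukemia lay within the preleukemic range for either receptor, and Kit was highest in array 10. Both chains of the transforming growth factor beta receptor fell, Tgfbr1 by 0.78 ± 0.09 and Tgfbr2 by 0.84 ± 0.15, together with Csf2ra (-0.84 ± 0.14), which encodes the alpha chain of the GM-CSF receptor. Csf1r is also a marker of macrophages, whose list means are given above, and the relation was not tested.

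Receptors and integrins that position cells in the marrow divided. Of 24 tested 7 rose and 6 fell (median 0.30), and with each array centred on its median over named genes 5 rose and 6 fell. The share called, 54.2%, was below the 62.9% of all genes tested. S1pr1, the receptor that lets lymphocytes leave tissue, ran from 9.10 to 9.89 (median 9.41) before leukemia and from 6.26 to 7.38 (median 6.92) in leukemia. It fell 6.08-fold (-2.60 ± 0.15, adjusted p = 6.6e-12). Cd44, a hyaluronan receptor, fell 2.93-fold (-1.55 ± 0.18), Ccr7, a homing receptor, 2.23-fold (-1.16 ± 0.26), and Cxcr4, the marrow retention receptor, 2.00-fold (SE 0.14 on the log2 scale). Among the rises were 2 integrin chain genes. Itgal rose 3.28-fold (1.71 ± 0.24) and Itgb1 2.53-fold (1.34 ± 0.11), without overlap in either case. Cxcr5, the follicle homing receptor, rose 3.60-fold (1.85 ± 0.45, adjusted p = 0.0012) and ran from 5.62 in array 2 to 9.61 in array 7, so that the groups overlapped.

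Phosphatases changed in both directions, 11 higher and 8 lower of 24 tested (median 0.15). Dual-specificity phosphatases that switch off MAP kinases led the falls. Dusp5 ran from 9.42 to 11.35 (median 10.61) before leukemia and from 7.70 to 9.26 (median 8.72) in leukemia and fell 3.85-fold (-1.95 ± 0.29, adjusted p = 7.09e-06). Dusp2 fell 2.16-fold (-1.11 ± 0.20) and Dusp1 3.67-fold (-1.88 ± 0.46). Preleukemic array 4 was the lowest of its group in Dusp1, Dusp2 and Dusp5, and leukemic array 3 had the highest Dusp1 of the leukemias (10.67, others 7.49 to 8.79). Dusp7, a cytoplasmic phosphatase of ERK, rose 3.36-fold (1.75 ± 0.32), from 9.13 to 9.52 before leukemia to 9.98 to 12.07 in leukemia. The lymphoid phosphatase gene Ptpn22 rose 5.63-fold (2.49 ± 0.35) and the receptor-type gene Ptpre 3.55-fold (1.83 ± 0.20).

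Ubiquitin ligases and deubiquitinases were mostly lower. Of 30 tested 18 fell and 5 rose (median -0.29), and 11 falls had no overlap. Uchl1, a ubiquitin hydrolase, ran from 8.29 to 9.31 (median 8.78) before leukemia and from 5.84 to 6.21 (median 5.95) in leukemia. It fell 7.12-fold (-2.83 ± 0.15, adjusted p = 1.07e-12). Tnfaip3, the NF-kappaB inhibitor A20, ran from 8.96 to 10.07 (median 9.94) and from 7.06 to 8.40 (median 7.63) and fell 4.08-fold (-2.03 ± 0.21, adjusted p = 3.53e-08). The ligase genes Nedd4 (1.73 ± 0.24) and Cbl (0.68 ± 0.10) and the proteasome-bound Uchl5 (0.96 ± 0.12) rose.

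Enzymes that build glycan chains also split by gene. Of 23 sialyl-, galactosyl- and related transferases 12 rose and 6 fell (median 0.51). Sialyltransferases were among the rises, St6galnac6 from 6.08 to 6.48 before leukemia to 7.50 to 8.16 in leukemia (1.50 ± 0.08, adjusted p = 8.2e-13) and St3gal4 by 1.48 ± 0.18. B4galt5, which makes lactosylceramide, rose by 1.32 ± 0.16, while its relative B4galt1 fell by 1.58 ± 0.11. Both lactosamine-extending genes named here fell, B3gnt8 by 2.04 ± 0.16 and B3gnt2 by 1.57 ± 0.12.

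Genes of nuclear transport were mostly higher. Of 34 tested genes of the nuclear pore and its carriers 24 rose and 1 fell (median 0.57), and 21 rises had no overlap. The list mean ran from 8.94 to 9.15 before leukemia and from 9.40 to 9.90 in leukemia. Kpna2, an importin alpha, ran from 9.53 to 10.46 (median 9.89) and from 11.01 to 11.89 (median 11.63) and rose 3.13-fold (1.65 ± 0.23, adjusted p = 2.59e-06). Ipo4, an importin of histones, rose 2.89-fold (1.53 ± 0.07, adjusted p = 2.35e-13). Xpot ran from 7.48 to 7.97 (median 7.81) and from 8.75 to 9.51 (median 9.09) and rose 2.54-fold (1.34 ± 0.10, adjusted p = 2.43e-10). Xpot, Hspd1 and Timm8a1 are the genes whose E-box promoters are printed above. The 1 fall was the pore component gene Nup160 (-0.25 ± 0.07).

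Mitochondrial ribosome, import and chaperone genes followed the same direction, with 25 rises and 2 falls among 36 tested (median 0.46) and no overlap in 17 rises. Hspa9, the mitochondrial HSP70, ran from 8.54 to 9.00 (median 8.74) before leukemia and from 10.16 to 11.01 (median 10.39) in leukemia. It rose 3.25-fold (1.70 ± 0.14, adjusted p = 8.76e-10). C1qbp, a matrix protein of mitochondrial translation, rose 2.30-fold (1.20 ± 0.11), Hspd1 2.25-fold (1.17 ± 0.15) and Timm8a1 2.23-fold (1.15 ± 0.17). Hspd1 and Timm8a1 were both lowest in array 3, which also had the lowest Myc of the leukemias. Array 7 had the highest Myc (11.93) but the lowest nuclear transport mean of the leukemias (9.40). A relation of these genes to Myc was not tested. The falls were the ribosomal protein gene Mrpl37 (-0.44 ± 0.07) and Tomm34, whose small difference (-0.22 ± 0.09, adjusted p = 0.0323) was lost on leaving out any of 6 single arrays (leukemic 3 and 6, preleukemic 3, 5, 6 and 7; -0.16 to -0.22).

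Translation factors rose in 16 and fell in 3 of 26 cases (median 0.31). Eif1a, an initiation factor that scans for the start codon, ran from 7.50 to 7.84 (median 7.71) and from 8.57 to 9.31 (median 8.79), a 2.26-fold rise (1.18 ± 0.09, adjusted p = 7.31e-10). Among subunit genes of initiation factor 3, Eif3b rose by 0.92 ± 0.07 and Eif3i by 0.80 ± 0.10. The translational repressor gene Eif4ebp1 fell by 0.32 ± 0.09 and Eif4g2 by 0.21 ± 0.04. RNA polymerases I and III, which make ribosomal and transfer RNA, did not move as a block. Their list held 9 rises and 9 falls among 24 tested (median -0.02), 7 and 11 after centring on named genes, and 10 and 7 after centring on all probe sets. Among polymerase I subunit genes, Polr1b rose by 1.45 ± 0.15 and Polr1a by 0.96 ± 0.07, whereas Polr1e fell by 0.38 ± 0.14 and Polr1d by 0.34 ± 0.10. Polr3e rose by 0.91 ± 0.09, whereas its partner in polymerase III, Polr3b, fell by 0.62 ± 0.09. Maf1, the repressor of polymerase III, fell by 0.62 ± 0.09 and its initiation factor gene Bdp1 by 0.41 ± 0.06.

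Of 25 enzymes of the tricarboxylic acid cycle 12 rose and 3 fell (median 0.21). Suclg2, a succinyl-CoA ligase subunit, rose by 1.11 ± 0.10, the malic enzyme gene Me2 by 1.04 ± 0.15 and the isocitrate dehydrogenase gene Idh3a by 0.96 ± 0.15. The pyruvate dehydrogenase subunit genes were slightly lower. Pdhb fell by 0.38 ± 0.08 and Pdha1 by 0.26 ± 0.09, the latter no longer called with arrays centred on all probe sets (-0.20, adjusted p = 0.0914). Splicing factors showed small differences. There were 17 rises and 9 falls among 40 (median 0.09), of which the rises in Snrpd3 (0.52 ± 0.09) and Snrpd1 (0.49 ± 0.11) and the falls in Srsf3 (-0.79 ± 0.08), Ptbp3 (-0.72 ± 0.09) and Rbm5 (-0.69 ± 0.08) are examples.

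Enzymes that write or erase methyl marks on DNA and histones divided evenly, with 13 rises and 14 falls among 37 (median 0.08), 7 rises and 16 falls after centring on named genes, and 8 rises without preleukemic array 1. The histone H3K4 demethylase gene Kdm5b stood out by size. It ran from 8.93 to 9.32 (median 9.19) before leukemia and from 5.42 to 6.31 (median 5.77) in leukemia, and fell 10.2-fold (-3.34 ± 0.13, adjusted p = 1.4e-14) with no leukemia near the preleukemic arrays. Ezh2, the H3K27 methyltransferase of Polycomb, and Kmt2c, an H3K4 methyltransferase, fell by 0.79 ± 0.09 each. Arginine methyltransferase genes rose: Carm1 ran from 7.95 to 8.31 and from 8.94 to 9.63 (1.19 ± 0.08, adjusted p = 8.78e-11), Prmt1 rose by 1.09 ± 0.09 and Prmt5 by 0.68 ± 0.07. Dnmt1, the maintenance DNA methyltransferase, rose by 0.64 ± 0.13.

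In the endoplasmic reticulum, 18 of 31 genes rose and 9 fell (median 0.41). The rises included the chaperone gene Sdf2l1 (1.37 ± 0.22), the disulfide isomerase gene P4hb (1.21 ± 0.12) and Pdia6 (0.94 ± 0.20). Herpud1, a degradation factor of the unfolded protein response, ran from 12.10 to 12.46 (median 12.35) before leukemia and from 10.20 to 12.25 (median 10.55) in leukemia. It fell 2.86-fold (-1.52 ± 0.25, adjusted p = 2.39e-05), and only array 3 lay inside the preleukemic range. The cochaperone gene Dnajb9 fell by 1.34 ± 0.19 and the signal recognition gene Srp14 by 0.67 ± 0.07.

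Lysosome and autophagy genes held 14 rises and 12 falls among 35 (median -0.03), and 13 and 16 after centring on named genes. Ctsd, a lysosomal protease, ran from 8.75 to 9.11 (median 8.88) and from 10.30 to 11.44 (median 10.66), a 3.51-fold rise (1.81 ± 0.14, adjusted p = 6.3e-10). Hexa, a glycosidase, rose by 1.37 ± 0.19 and the protease gene Ctsh by 1.66 ± 0.43. All 3 were highest in array 1, which also had the highest macrophage marker mean (9.20, others 6.88 to 8.08), and the relation was not tested. Tfeb, the transcription factor that controls lysosome genes, fell 2.33-fold (-1.22 ± 0.10), from 8.57 to 8.98 before leukemia to 7.16 to 8.01 in leukemia. The autophagosome genes Map1lc3a and Map1lc3b fell by 0.86 ± 0.08 and 0.71 ± 0.10.

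Iron and heme genes were evenly split (6 rises and 6 falls of 23, median -0.06). The 52.2% called lay below the 62.9% of all genes tested. Slc40a1, the iron exporter ferroportin, ran from 4.79 to 5.13 (median 5.08) and from 6.31 to 8.29 (median 7.70) and rose at least 4.45-fold (2.47 ± 0.27, adjusted p = 1.07e-07). The iron importer gene Slc11a2 fell by 1.65 ± 0.11 and the biliverdin reductase gene Blvrb by 2.46 ± 0.28, while the heme exporter gene Flvcr1 rose by 1.20 ± 0.13. Ferroportin is abundant in macrophages, whose list mean was higher in every leukemia, and the relation was not tested.

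Antioxidant genes rose in 16 and fell in 6 of 27 cases (median 0.23). Members of the glutathione system moved in opposite directions. Gsto1, a glutathione transferase, ran from 6.10 to 6.70 (median 6.37) before leukemia and from 8.89 to 9.77 (median 9.35) in leukemia, a 7.78-fold rise (2.96 ± 0.15, adjusted p = 3.64e-13). Gstm1, another transferase, ran from 8.94 to 9.53 (median 9.33) and from 6.59 to 8.28 (median 7.04), a 3.97-fold fall (-1.99 ± 0.22, adjusted p = 8.1e-08). Mgst1 fell 4.39-fold (-2.13 ± 0.26). The 2 subunits of the enzyme that starts glutathione synthesis diverged, with Gclc, the catalytic subunit, down 3.62-fold (-1.85 ± 0.18) and Gclm, the modifier subunit, up 2.24-fold (1.16 ± 0.23). For Gclc, array 2 (10.52) stood above the other leukemias (8.62 to 9.58).

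Targets of the glucocorticoid receptor held 5 rises and 7 falls of 22 (median -0.13). The 54.5% called lay below the 62.9% of all genes tested. Zfp36, which destabilizes messenger RNA, fell by 2.01 ± 0.19 and the kinase gene Sgk1 by 1.60 ± 0.19. Mt2, a metallothionein, rose by 2.68 ± 0.33, Fkbp5, a chaperone of the receptor, by 1.92 ± 0.38 and Errfi1 by 1.41 ± 0.25. Leukemic array 3 was the highest leukemia in Mt2 (10.96), Fkbp5 (10.61), Errfi1 (9.70), Dusp1 and Sgk1 (8.59). Its list mean was 9.94 against 8.45 to 9.18 in the other leukemias and 8.68 to 9.13 before leukemia.

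Clock genes gave 7 rises and 3 falls of 19 (median 0.06), but 4 and 6 after centring on named genes. The 52.6% called lay below the 62.9% of all genes tested. The core activator gene Arntl fell 3.53-fold (-1.82 ± 0.24), from 6.96 to 9.02 before leukemia to 5.83 to 6.78 in leukemia, and the repressor gene Nr1d1 rose by 1.10 ± 0.16. Hypoxia genes were also mixed, with 6 rises and 9 falls of 24 (median -0.01), and the 62.5% called was near that of all genes. The subunit genes of hypoxia-inducible factors diverged: Hif1a fell by 1.09 ± 0.18 and Epas1, which is prominent in endothelium, rose by 2.00 ± 0.21. Pdk1, a kinase that restrains pyruvate dehydrogenase, ran from 6.51 to 7.45 (median 7.18) and from 8.41 to 9.47 (median 9.05) and rose 4.04-fold (2.01 ± 0.16, adjusted p = 5.82e-10). Pfkfb3, a regulator of glycolysis, fell by 0.72 ± 0.10.

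Among markers of other cells, single genes gave values as follows. Pf4, a platelet chemokine, rose 11.3-fold (3.50 ± 0.32) and Nrgn 7.50-fold (2.91 ± 0.22). Bgn, a matrix proteoglycan, rose 11.8-fold (3.56 ± 0.24) and Igfbp7 8.02-fold (3.00 ± 0.22). In the macrophage list C1qb rose 9.12-fold (3.19 ± 0.28), Vcam1 8.18-fold (3.03 ± 0.24) and Mpeg1 7.48-fold (2.90 ± 0.49). Mmp9, a neutrophil protease, rose 9.56-fold (3.26 ± 0.55), and Ctsg, another, 6.55-fold (2.71 ± 0.67). Mmp9 was 8.70 in array 2 and 8.93 in array 7, whose granulocyte list means were 6.33 and 6.10. Ctsg ran from 5.66 to 5.99 before and from 5.61 to 10.79 in leukemia, so that the groups overlapped. Lcn2, a granule protein, ran from 7.16 to 9.33 before and from 7.12 to 12.94 in leukemia (2.18 ± 0.74, adjusted p = 0.0137) and was no longer called without arrays 1 and 6 (1.65, adjusted p = 0.0506). Of 15 dendritic-cell genes 6 rose and 2 fell, and the 53.3% called lay below the 62.9% of all genes tested. Flt3 and Spib, described above, are also members of this list. Siglech, a plasmacytoid receptor, rose by 2.21 ± 0.74 but spread from 5.80 to 11.46 over the leukemias. Thy1, a marker of T cells and progenitors, rose by 1.80 ± 0.39, Cd28 at least 3.37-fold and Cd4 by 1.15 ± 0.31. Cd4 and Cd28 were highest in array 1.

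The leukemias differed most from each other in genes that were high in some and at the preleukemic level in others. Kcnma1, a calcium-activated potassium channel, was 4.95 in array 4, 5.32 in array 1 and 7.15 in array 8. In the other 7 leukemias it lay between 10.90 and 13.40, against 5.14 to 5.99 before leukemia. The mean difference was 5.26 ± 1.25 (adjusted p = 0.00104), at least 36.8-fold. The difference was 5.86 without array 1 and 5.90 without array 4, and averaging both probe sets of the gene gave 2.61. Mrgpra1 was 5.81 in array 2, 8.04 in array 7 and 11.42 to 12.63 in the remaining leukemias, against 5.09 to 5.44 before. Cdh17, a cadherin, ran from 4.95 in array 7 to 11.87 in array 6 (median 9.35) and rose at least 10.2-fold (3.79 ± 0.95), with a difference of 3.12 without arrays 1 and 6. Pcdh11x, a protocadherin, ran from 4.43 to 9.67 and rose at least 2.89-fold (2.26 ± 0.78, adjusted p = 0.0154), with a difference of 2.85 without arrays 1 and 6. Rnase12, a secreted ribonuclease, ran from 5.30 to 12.25 and was barely called (2.43 ± 1.06, adjusted p = 0.0497), a call that 13 single arrays each ended when left out (every preleukemic array and leukemic arrays 1, 3, 5, 6, 7 and 8; 1.99 to 2.55). Kir3dl1 ran from 4.53 to 9.68, with 3 of 10 leukemias inside the preleukemic range. All preleukemic arrays lay below the dim level, and the rise was at least 2.79-fold (adjusted p = 0.0152). Serpinb9d and the neutrophil marker gene Ly6g had wide ranges (4.40 to 9.71 and 5.29 to 12.04) and did not pass the test (adjusted p = 0.0596 and 0.113). Serpinb9d passed without any 1 of leukemic arrays 2, 3, 4, 6 and 9 (1.83 to 1.88).

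Genes on chromosome 15 were higher as a group in leukemic array 1. Over 447 brighter genes of that chromosome, the median signal of array 1 lay 0.28 above the mean of the other 9 leukemic arrays, relative to all brighter genes. The share of these genes above that mean was 74.7%. The chromosome cut into 4 parts in gene order gave medians of 0.36, 0.19, 0.36 and 0.22, so the difference extended along the chromosome. Over all other of the 200 combinations of chromosome and leukemic array the medians ran from -0.07 to 0.05. Chromosome 15 carries Myc, which was 11.21 in array 1 and had a median of 11.41 over the 10 leukemias. These medians are descriptions, with no test.

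**Figure D5:**
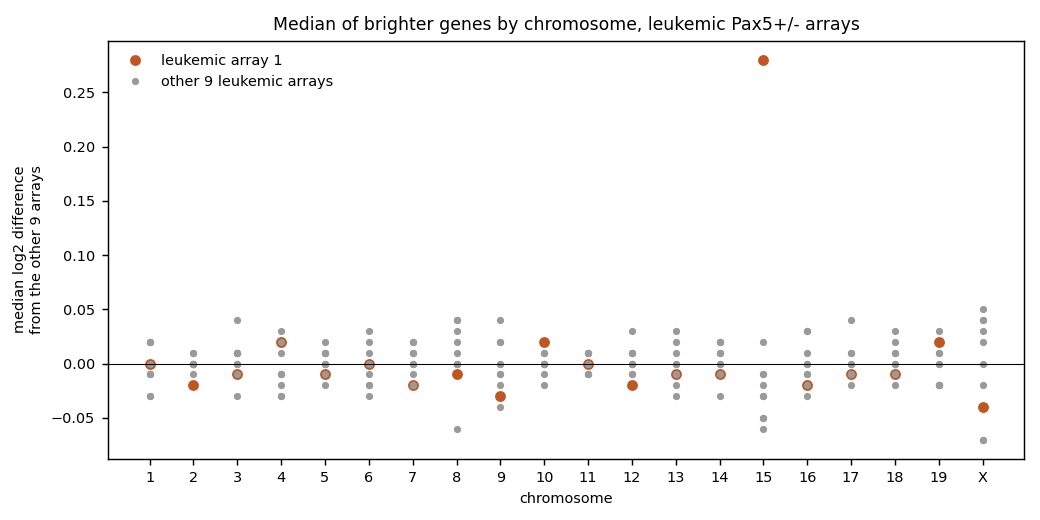
For each chromosome, points give the median log2 difference of its brighter genes in 1 leukemic Pax5+/- array from the mean of the other 9, with array 1 in orange and the rest in grey. Chromosome 15 in array 1 lies at 0.28, and all other points lie between -0.07 and 0.05.

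Few genes showed a stage difference that depended on genotype. The interaction of stage and genotype was called for 29 of 15647 genes (0.185%), and 1325 had an unadjusted p under 0.05 in limma. In 26 of these 29 the call also held without preleukemic wild-type array 1, which stands apart from its group, and 48 genes were called without it. Dock9, an exchange factor for CDC42, rose by 0.72 ± 0.20 in Pax5+/- arrays. In wild-type arrays it went from a mean of 8.81 to 6.74, a difference between genotypes of 2.79 ± 0.38 (adjusted p = 0.000933). Edaradd, a death-domain adaptor, fell by 1.25 in Pax5+/- arrays and had a difference of -3.20 in wild-type arrays (1.95 ± 0.24, adjusted p = 0.000246). Notch2, a receptor of B-cell fate, rose by 0.90 ± 0.14 in Pax5+/- arrays and had a difference of -0.52 in wild-type arrays (1.42 ± 0.26, adjusted p = 0.0117). Slc1a5, a glutamine transporter, did not pass in Pax5+/- arrays (-0.11 ± 0.17, adjusted p = 0.562) and was 2.06 lower in leukemic than preleukemic wild-type arrays, at means of 9.62 and 11.68 (1.95 ± 0.31, adjusted p = 0.00358). In all 10 genes named by this contrast the preleukemic wild-type mean was above every preleukemic Pax5+/- array. For Tmc7, Klra8, Enpep and Klhl14 the leukemic Pax5+/- arrays lay at or near the dim level, which limits the fall that can be seen. The largest falls and rises described above were not among these genes, and a missed interaction does not show equal differences.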

How the data were processed

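RNA of the 24 samples was measured on 1-colour Affymetrix mouse gene arrays, of which 17 entered the comparison and all 24 the model. Deposited were log2 signals for 35556 probe sets, which the authors computed by RMA (oligo package), according to the labels and per the submitters' processing notes. RMA corrects background and equalizes the distributions of the arrays, and differences near background come out too small. No source used here gives package versions or any batch correction.

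Of the probe sets, 21789 had 1 gene symbol, 1621 several and 12146 none in the platform table used. They named 19938 genes, and the probe set with the highest mean was kept where a gene had several (999 genes). RefSeq identifiers matched 19856 genes. The 15647 genes that reached the 30th percentile of an array on at least 3 arrays were tested. Group means over 24 arrays were fitted with limma 3.58.1 in R 4.3.3 (lmFit, contrasts.fit, eBayes; 20 residual and 2.29 prior degrees of freedom), two-sided, with Benjamini-Hochberg adjustment over all genes tested and calls at an adjusted p under 0.05. Tables and figures used Python 3.11.15, pandas 2.3.3 and matplotlib 3.10.9. On simulated arrays with 200 changed genes among 15647, differences of 0.5 and 1 were recovered in 74% and 96% of cases, and 3.95% of calls were false. In the data far more genes were called, so these rates need not hold there.

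The comparison, the 30 gene lists (758 genes, 715 tested) and the genes named were chosen with earlier results of these data known, so list counts are descriptions. The counts of 1 list are not reported here. Named were the 20 largest called rises and falls without overlap, up to 3 rises and 3 falls of each list (all where 4 or fewer were called), the 10 genes most variable over the leukemias, Pax5 and Myc, and the 10 called genes with the largest interaction. Predicted genes, receptor segments, small RNAs and sex-linked marker genes were left out. Other list members with values, such as Cd79a, Tcf3, Ebf1, Cxcr4, Dnmt1, Prdm1, Igll1, Vpreb1, Foxo1 and Timm8a1, were chosen after their values were seen, as were the printed promoters. Brighter genes were those above the 50th percentile on at least 7 arrays. Alternatives were a trended and robust eBayes, the 17 arrays alone, array weights, no filter or a stricter one, centring on named genes, repeated quantile normalization, a floor at the dim level, means of probe sets, each array left out and the replicate number as a block. Chosen after seeing the data were centring on all probe sets, leaving out leukemic arrays 1 and 6, and, for the interaction, leaving out preleukemic wild-type array 1. Same-numbered arrays of the groups had correlated deviations of only -0.13 to 0.01 over 7 pairs, so the numbers were not used to pair samples.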

Additional observations from a re-analysis of the deposited data

Results flagged for a closer look

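Single arrays lay far from the rest of their group, by Dixon's 95% criterion on the gap to the nearest array, in 48 of 494 groups checked. Chance would give this in about 1 of 20 groups of independent, normally spread values. The groups here share arrays, and many of their genes were named from the same values. An excess over chance can therefore not be read from this count. Values are log2 signals, with the range of the other arrays of the group in parentheses. Chromosome medians are log2 differences from the preleukemic mean. Causes were not tested. The following arrays stood apart among the 10 leukemic Pax5+/- samples. Array 1 was the lowest for Pdha1 at 8.93 (9.32 to 9.76). Array 1 was the highest for Cd2 at 8.35 (5.83 to 7.01), Cd4 at 9.25 (6.31 to 7.81), Notch2 at 10.24 (8.95 to 9.60), Vav2 at 8.42 (7.70 to 7.98), the lysosome and autophagy mean at 9.60 (9.04 to 9.29), the monocyte and macrophage markers mean at 9.20 (6.88 to 8.08) and the chromosome 15 median at 0.29 (-0.04 to 0.02). Array 2 was the lowest for Atp8b4 at 8.29 (9.60 to 10.50), Dock10 at 10.08 (10.68 to 11.21), Emb at 7.75 (10.01 to 11.44), Etv6 at 9.72 (10.17 to 10.62), Il18rap at 6.77 (9.30 to 10.63), Rgs18 at 7.64 (10.01 to 11.08) and Tlr7 at 6.09 (8.56 to 9.46). Array 2 was the highest for Alad at 11.18 (8.99 to 10.14), Cpm at 9.15 (5.50 to 7.18), Fcmr at 9.62 (6.11 to 6.74), Gclc at 10.52 (8.62 to 9.58), Otub2 at 8.43 (5.58 to 5.86) and Tmc7 at 5.23 (4.99 to 5.12). Array 3 was the lowest for Carm1 at 8.94 (9.28 to 9.63), Dctd at 8.74 (9.63 to 10.19) and Myc at 9.09 (11.18 to 11.93). Array 3 was the highest for Dusp1 at 10.67 (7.49 to 8.79) and the glucocorticoid receptor and its target genes mean at 9.94 (8.45 to 9.18). Array 4 was the lowest for Nedd4 at 8.67 (9.74 to 10.86). Array 5 was the lowest for Klhl14 at 5.18 (5.33 to 5.47). Array 7 was the lowest for Ccnd1 at 8.08 (10.53 to 12.47) and Frmd4b at 7.94 (9.17 to 10.16). Array 8 was the lowest for Epas1 at 6.97 (8.41 to 9.27), Igfbp7 at 8.12 (9.25 to 10.25) and the chromosome 8 median at -0.08 (-0.02 to 0.02). Array 10 was the lowest for Sh2d1b1 at 6.43 (8.23 to 9.72).

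The following arrays stood apart among the 7 preleukemic Pax5+/- samples. Array 1 was the highest for Ctsg at 5.99 (5.66 to 5.79) and Vpreb3 at 13.29 (13.04 to 13.12). Array 2 was the lowest for B4galt1 at 10.38 (10.61 to 10.78) and Slc11a2 at 8.42 (8.64 to 8.79). Array 2 was the highest for Cdh17 at 5.05 (4.80 to 4.88). Array 3 was the highest for Mpeg1 at 7.92 (5.68 to 6.59), Ptpn22 at 7.02 (5.55 to 5.76), Siglech at 8.45 (6.72 to 7.22) and the T-cell and NK-cell markers mean at 6.32 (5.70 to 5.89). Array 4 was the highest for Rgs18 at 7.16 (6.35 to 6.70). Array 5 was the highest for Ccr7 at 10.80 (10.30 to 10.49), Dctd at 6.48 (6.05 to 6.22) and Eif4ebp1 at 9.09 (8.75 to 8.87). Array 6 was the highest for Suclg2 at 7.45 (7.12 to 7.24).

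The stage difference depended on genotype in the limma interaction contrast for 10 named genes. Values are the Pax5+/- minus the wild-type stage difference on the log2 scale, with its sign. A positive value can mean a smaller fall in Pax5+/- than in wild-type arrays, as for Edaradd. Signals near the dim level (5.18 to 5.35) leave little room for a fall. Leukemic Pax5+/- arrays ran from 4.99 to 5.23 for Tmc7, 4.45 to 4.62 for Klra8, 5.13 to 5.39 for Enpep and 5.18 to 5.47 for Klhl14. Preleukemic Pax5+/- arrays were also low for Tmc7 (5.14 to 5.39), Klra8 (4.61 to 5.37) and Enpep (5.42 to 5.64). The value was 2.79 for Dock9 (adjusted p = 0.000933), 2.26 for Clcf1 (adjusted p = 0.00802) and 2.07 for Klra8 (adjusted p = 0.0265). For Slc1a5 and Edaradd it was 1.95 (adjusted p = 0.00358 and 0.000246). It was 1.67 for Pacs2 (adjusted p = 0.00118), 1.62 for Klhl14 (adjusted p = 0.0103) and 1.55 for Tmc7 (adjusted p = 3.63e-05). For Notch2 it was 1.42 (adjusted p = 0.0117) and for Enpep 1.22 (adjusted p = 0.00202). All 10 remained called without preleukemic wild-type array 1, although Klra8 then differed by 1.31.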

How the results depend on the processing

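The count of 9839 called genes ran from 7524 to 11737 over the alternatives, and from 9203 to 9951 when single arrays were left out. Genes called lower (5485) numbered 3547 with the stricter filter, which tests fewer genes, and 3502 with arrays centred on all probe sets, but 7269 with centring on named genes and 7329 with no filter. The 4354 genes called higher ran from 3667 to 5066. Their share of the calls was 52.9% with the stricter filter, 37.6% with no filter, 33.5% with centring on named genes and 59.1% with centring on all probe sets, so the balance of small rises and falls rests on the scaling. Counts of at least 2-fold differences ran from 892 to 1176 higher and from 424 to 554 lower. Leaving out single arrays gave 4180 to 4398 genes higher, 5018 to 5569 lower, 1010 to 1088 at least 2-fold higher and 454 to 489 at least 2-fold lower. Pax5 ran from -2.98 to -2.67 over the other alternatives and from -3.22 to -2.72 with single arrays left out. The interaction count of 29 was 48 without preleukemic wild-type array 1. With the replicate number as a block, which the data do not support as a pairing (0 of 7 arrays correlated best with their own number), 8727 genes were called, 4008 higher and 4719 lower, and Pax5 differed by -2.71. Of 5966 values of the other named genes under single alternatives, 5876 kept their direction and their side of the threshold, 81 lost the call, 9 gained it and none turned. Genes near the dim level have compressed differences.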
